A study of Mus musculus with 10 samples.

Results

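Hepatocyte identity transcription factors are the DNA-binding proteins that establish and keep the liver cell's own gene programme. The 9 genes followed here were chosen by name: Hnf4a, Foxa1, Foxa2, Foxa3, Cebpa, Onecut1, Onecut2, Prox1 and Nr5a2. Earlier results of these data were known when these genes, and the lists and markers used below, were chosen. The factors are 9 of the 55291 genes in the count table, and all 9 were among the 17015 genes that passed the filter on low counts. Their RNA was measured by bulk RNA-seq in 10 mouse livers, after a guide RNA against Bap1 or a non-targeting control (NTC) and then carbon tetrachloride (CCl4) or its vehicle.

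All mice were adult females carrying a Lox-Stop-Lox Cas9 allele, silent before Cre acts, and all received an AAV8 virus with a guide and a Cre gene under the TBG promoter, which is active in hepatocytes. Control and sgBap1 livers therefore both carry Cas9 and the virus and differ in the guide. On day 10 each mouse was injected with CCl4 in olive oil or with olive oil alone, and the liver was taken 48 h later. The groups were NTC-Veh (n = 2), sgBap1-Veh (n = 2), NTC-CCl4 (n = 3) and sgBap1-CCl4 (n = 3). The TBG promoter aims the edit at hepatocytes, and whole-liver RNA also holds the other cells.

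HNF4A is a nuclear receptor that holds the adult hepatocyte programme in place. FOXA1, FOXA2 and FOXA3 are winged-helix pioneer factors that open liver chromatin, and C/EBPα, encoded by Cebpa, is a leucine-zipper factor of metabolic genes and of the quiescent state. ONECUT1 (HNF6) and ONECUT2 carry a cut domain and a homeodomain, PROX1 is a homeodomain protein of early liver growth, and NR5A2 (LRH-1) is a nuclear receptor of bile acid and cholesterol genes. These factors bind one another's promoters and enhancers and are known as a cross-regulating network. CCl4 is turned by liver enzymes into a radical that kills hepatocytes around the central veins, after which the liver regenerates. BAP1 is a deubiquitinase that removes ubiquitin from histone H2A.

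The promoters of Cebpa, the 3 FOXA genes and Hnf4a, which the results turn on, are shown first, since they let a reader see which network motifs stand in them. The windows come from RefSeq on GRCm38.p6, which held 13 windows for 8 of the 9 factors. Each window is the 250 bases before a transcript start, cut where GENCODE vM21 marks an exon of the same gene, and runs 5′ to 3′ on the gene's strand. Capitals mark a searched motif on either strand. Cebpa is on the + strand (chr7:35119043-35119292), Foxa2 on the - strand (chr2:148046970-148047219), Foxa3 on the - strand (chr7:19023540-19023789) and Foxa1 on the - strand (chr12:57546122-57546361). Hnf4a has an upstream start (chr2:163506607-163506807) and a downstream start (chr2:163546943-163547154), both on the + strand.
Cebpa: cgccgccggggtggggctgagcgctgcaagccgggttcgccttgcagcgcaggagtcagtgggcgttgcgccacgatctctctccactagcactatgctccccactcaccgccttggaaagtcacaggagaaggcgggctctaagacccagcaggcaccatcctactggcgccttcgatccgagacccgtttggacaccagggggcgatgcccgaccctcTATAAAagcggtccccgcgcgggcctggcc
Foxa2: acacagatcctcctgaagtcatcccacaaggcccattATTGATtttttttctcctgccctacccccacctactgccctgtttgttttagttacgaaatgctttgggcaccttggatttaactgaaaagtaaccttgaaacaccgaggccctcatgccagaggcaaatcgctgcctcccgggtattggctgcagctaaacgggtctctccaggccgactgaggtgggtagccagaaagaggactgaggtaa
Foxa3: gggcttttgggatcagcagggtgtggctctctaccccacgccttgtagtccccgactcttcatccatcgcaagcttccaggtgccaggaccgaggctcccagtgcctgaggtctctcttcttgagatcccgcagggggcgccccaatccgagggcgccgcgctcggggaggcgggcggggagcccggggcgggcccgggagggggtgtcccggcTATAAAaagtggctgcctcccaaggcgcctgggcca
Foxa1: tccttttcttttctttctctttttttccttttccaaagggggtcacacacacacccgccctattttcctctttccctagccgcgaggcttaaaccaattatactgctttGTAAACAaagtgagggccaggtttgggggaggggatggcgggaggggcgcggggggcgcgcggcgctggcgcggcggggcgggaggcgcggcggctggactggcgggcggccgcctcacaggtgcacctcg
Hnf4a upstream: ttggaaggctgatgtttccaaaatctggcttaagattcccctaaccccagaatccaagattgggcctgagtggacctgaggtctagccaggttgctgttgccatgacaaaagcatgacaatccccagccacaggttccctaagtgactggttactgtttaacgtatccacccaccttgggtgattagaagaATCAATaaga
Hnf4a downstream: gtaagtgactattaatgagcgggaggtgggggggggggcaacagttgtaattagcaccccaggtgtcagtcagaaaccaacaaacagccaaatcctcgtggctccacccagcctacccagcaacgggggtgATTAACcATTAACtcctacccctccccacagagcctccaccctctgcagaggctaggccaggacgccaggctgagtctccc

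The motif searched for FOXA was TGTTTAC, for ONECUT ATTGAT, for HNF1 GTTAAT, for HNF4 CAAAGTC, for NR5A2 AAGGTCA, for CEBP TTGCNNAA and for the TATA box TATAAA. Cebpa and Foxa3 each held a TATA box, at -30 to -25 and -36 to -31 from the start. Foxa1 held a FOXA motif at -141 to -135, and the upstream Foxa2 window an ONECUT motif at -213 to -208. Foxa2 also has windows that are not shown. The one at chr2:148045949-148046198 held no searched motif. The one at chr2:148045465-148045714 held an HNF1 motif at -176 to -171 and the TATA letters at -208 to -203. The upstream start of Hnf4a had an ONECUT motif at -59 to -54, and the downstream start, the one known for adult liver, had a pair of HNF1 motifs at -81 to -76 and -74 to -69. Of 32851 promoter windows of 250 bases, 12.4% held the TATA letters, 9.56% CEBP, 6.72% ONECUT, 6.43% HNF1, 4.08% NR5A2, 3.84% HNF4 and 3.17% FOXA. These matches are descriptions of letters, and binding was not measured.

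The libraries were deep enough for every factor. Estimated counts summed to 3.30e+07 to 5.22e+07 per liver, and 3 counts correspond to 0.0511 to 0.112 CPM, the estimated count scaled to a common library size (counting error only). Bap1 itself measured 34.8 and 34.8 CPM in NTC-Veh and 17.6 and 19.5 CPM in sgBap1-Veh livers. After CCl4 it measured 29.5 to 31.5 CPM in NTC and 16.99 to 21.8 CPM in sgBap1 livers. Its log2 fold change with the guide was -0.91 with vehicle (edgeR quasi-likelihood test, adjusted p = 0.0208) and -0.65 with CCl4 (adjusted p = 0.0295). It was lower in all 19 alternative fits of each comparison and passed in 12 and 10 of them, with highest adjusted p-values of 0.12 and 0.147. One liver stood apart, sgBap1-CCl4 replicate 2, with 36.4 CPM of Adipoq and 34.5 CPM of Plin1, fat cell genes that had at most 0.0425 CPM in the other livers.

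The 10 hepatocyte markers were high in every liver, so the label of the tissue holds. With vehicle they summed to 132900 to 162200 CPM under the control guide and 118500 to 123400 CPM under the Bap1 guide. After CCl4 the sums were 86140 to 93950 CPM and 75880 to 97150 CPM, in the same order of guides. In NTC livers 8 of these 10 markers fell with CCl4 and 0 rose, where 26.6% of all tested genes fell and 27.4% rose. In sgBap1 livers 5 of the 10 fell and 1 rose, where 28% of all tested genes fell and 29% rose. The 8 macrophage and monocyte markers summed to 158 to 214 CPM (NTC) and 307 to 421 CPM (sgBap1) with vehicle, and to 685 to 871 CPM (NTC) and 687 to 918 CPM (sgBap1) after CCl4. Of these 8 markers, 7 rose and 0 fell with CCl4 in NTC livers, and 6 rose and 1 fell in sgBap1 livers. The 6 stellate cell and fibroblast markers summed to 178 to 215 CPM in NTC-Veh and 385 to 477 CPM in NTC-CCl4 livers, where 5 of them rose and 0 fell. Fewer hepatocytes and less RNA per hepatocyte cannot be told apart in these libraries, and the part of these shifts in the values below was not tested.

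Levels between genes can be compared only per length, here as CPM per kb of exons (GENCODE vM21). With vehicle and the control guide, Cebpa stood first at 133.4 ± 5.72 CPM per kb (SD, n = 2) and Hnf4a next at 120.0 ± 9.88. Foxa3 followed at 30.9 ± 8.30, above the other FOXA genes, with Foxa2 at 13.0 ± 3.95 and Foxa1 last at 5.85 ± 1.19. Prox1 (19.8 ± 4.83), Onecut1 (16.7 ± 14.4), Nr5a2 (13.1 ± 1.06), Foxa2 and Onecut2 (10.6 ± 0.100) came between Foxa3 and Foxa1, and the first 4 of these each overlapped the next in that order. With vehicle the sgBap1 livers had the same first 4 genes, with Foxa3 at 31.3 ± 20.5 overlapping Prox1 at 17.3 ± 1.88.

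After CCl4 the order changed at the top. Hnf4a stood first at 101 ± 8.41 CPM per kb under the control guide and 94.6 ± 11.01 under the Bap1 guide (n = 3 each), and its range overlapped that of no other factor. Cebpa was next in NTC-CCl4 at 45.2 ± 11.4, above Foxa3 at 34.0 ± 1.02. In sgBap1-CCl4 livers Foxa3 (36.7 ± 4.92) and Cebpa (36.1 ± 5.20) overlapped. Foxa1 had the lowest mean in all 4 groups, though it overlapped Onecut1 after CCl4.

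**Figure D1:**
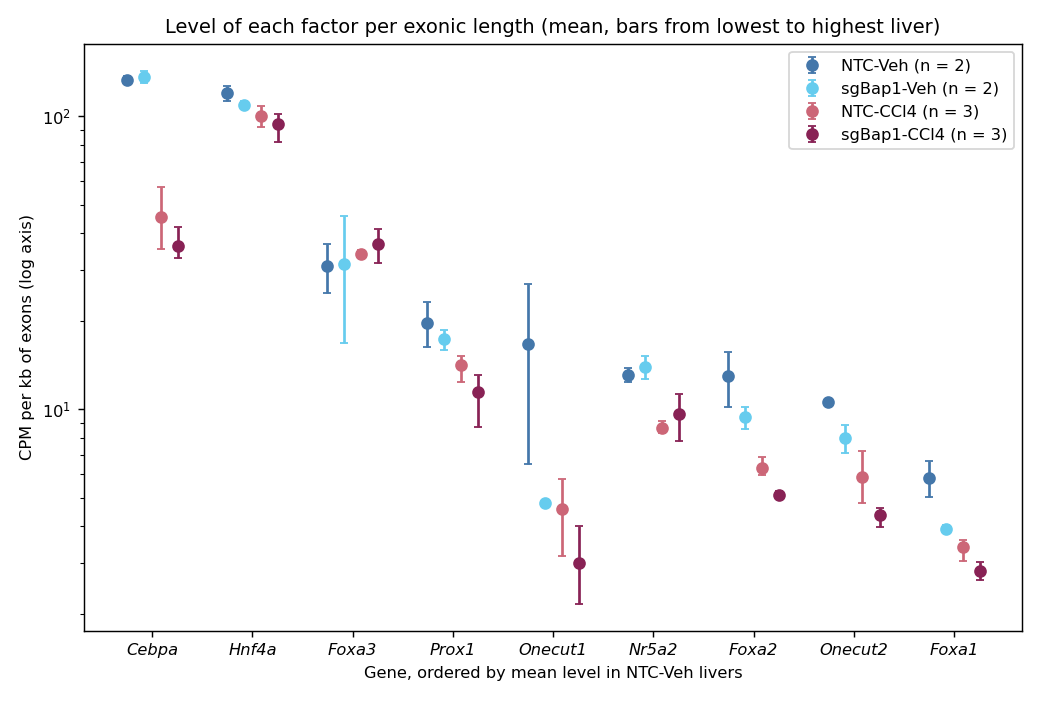
Mean level of each factor in CPM per kb of exons on a log axis, with bars from the lowest to the highest liver, for NTC-Veh and sgBap1-Veh (n = 2 each) and NTC-CCl4 and sgBap1-CCl4 (n = 3 each). Cebpa drops from 133.4 to 45.2 CPM per kb in NTC livers while Hnf4a goes from 120.0 to 101.

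The first question of the design is what CCl4 does in livers with the control guide. Of the 9 factors 6 fell and 0 rose (edgeR quasi-likelihood test, adjusted p under 0.05 over all 17015 genes). With library size as the only scaling, which moved the median of all genes to 0.50, 2 fell, Cebpa and Foxa2, and the calls on Foxa1 (adjusted p = 0.0561), Onecut1 (adjusted p = 0.0546), Onecut2 (adjusted p = 0.0655) and Nr5a2 (adjusted p = 0.424) were lost. In this comparison 53.9% of all tested genes were called, 26.6% of them lower and 27.4% higher as shares of all genes tested. The median log2 fold change was -0.79 over the 9 factors and 0.027 over all genes tested. Cebpa fell most clearly, Hnf4a and Prox1 did not pass, and Foxa3 was the factor with a positive value.

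Cebpa (ENSMUSG00000034957.10, chr7:35119293-35121928, + strand) measured 362 and 341 CPM in NTC-Veh livers and 113, 152 and 93.2 CPM in NTC-CCl4 livers. The groups did not overlap, as for 71.7% of all tested genes. The fall was -1.56 on the log2 scale (SE 0.19), or 2.95-fold, with an adjusted p of 6.42e-05. In sgBap1 livers Cebpa went from 342 and 378 CPM to 88.1, 86.4 and 111 CPM, again without overlap (72.2% of all tested genes). That is a 3.78-fold fall, -1.92 on the log2 scale (SE 0.19), at an adjusted p of 1.68e-05. It passed in all 38 alternative fits of these 2 comparisons, with a highest adjusted p of 0.00101.

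The FOXA genes did not move together. Foxa2 (ENSMUSG00000037025.11, chr2:148042877-148046969, - strand) measured 37.3 and 24.1 CPM in NTC-Veh and 16.3, 14.6 and 14.1 CPM in NTC-CCl4 livers. The fitted drop was 2.05-fold, a log2 value of -1.03 (SE 0.16) with an adjusted p of 0.000364. Foxa2 also passed in all 38 alternative fits, with a highest adjusted p of 0.0347. Foxa1 (ENSMUSG00000035451.7, chr12:57540628-57546916, - strand), the least abundant, went from 22.2 and 16.7 CPM to 11.8, 11.9 and 10.1 CPM, or -0.79 on the log2 scale (SE 0.14), at an adjusted p of 0.000708.

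Foxa3 (ENSMUSG00000040891.6, chr7:19013284-19023538, - strand) measured 74.8 and 50.9 CPM in NTC-Veh and 69.4, 71.2 and 67.1 CPM in NTC-CCl4 livers. The groups overlapped, and the log2 fold change of 0.14 had a 95% confidence interval of -0.68 to 0.96 (adjusted p = 0.767). That interval covers changes in both directions, so a constant level was not shown. Its spread came from the vehicle livers, since sgBap1-Veh livers had 34.2 and 93.3 CPM. Without sgBap1-Veh replicate 2, the log2 fold change of Foxa3 with CCl4 in sgBap1 livers was 1.13 (adjusted p = 0.00348) in place of 0.23 (adjusted p = 0.607), and without sgBap1-Veh replicate 1 it was -0.315.

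Ratios within a liver do not depend on how libraries are scaled. The log2 ratio of Foxa2 to Foxa3 was -1.08 to -1.003 in NTC-Veh and -2.29 to -2.09 in NTC-CCl4 livers. In sgBap1 livers it was -1.95 to -0.75 with vehicle and -2.75 to -2.45 with CCl4. The ratio of Foxa1 to Foxa3 likewise did not overlap between vehicle and CCl4 under either guide, with means of -1.68 and -2.62 in NTC livers. In sgBap1 livers the groups barely parted, with -2.882 in the lowest vehicle liver and -2.888 in the highest CCl4 liver. How many other gene pairs part in this way was not counted. For Cebpa to Hnf4a the log2 ratio was -0.76 to -0.68 in NTC-Veh and -2.25 to -1.79 in NTC-CCl4 livers. These ratios show unequal change between 2 genes, and which of them moved is not read from them.

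**Figure D2:**
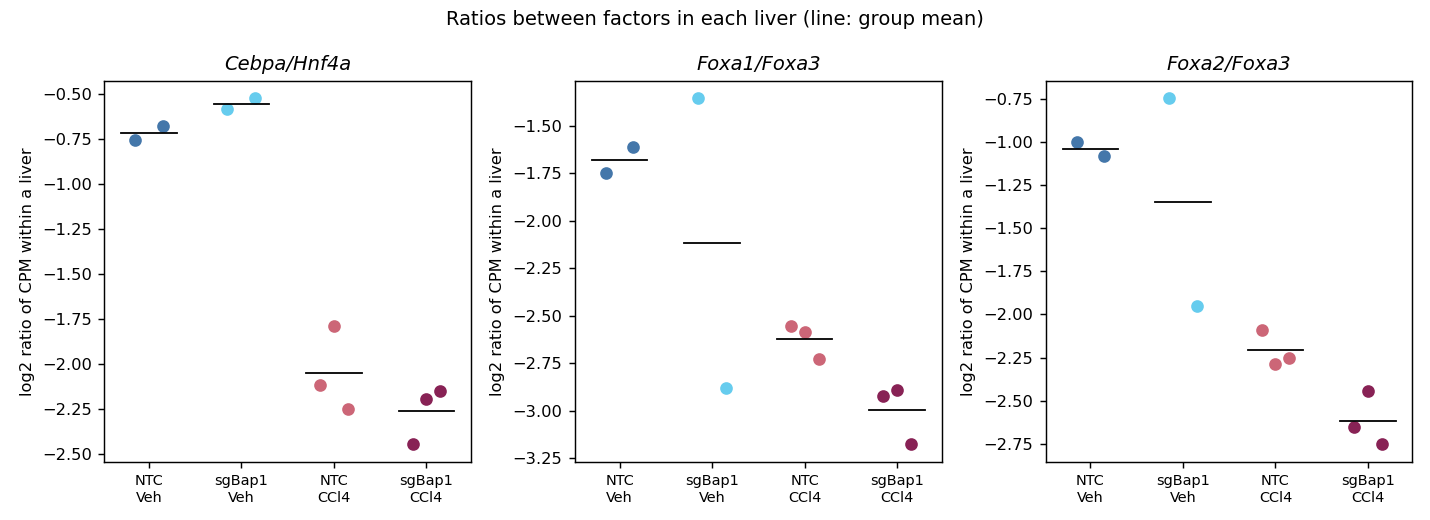
Log2 ratio of CPM between 2 factors in each liver (points) with the group mean (line), for NTC-Veh, sgBap1-Veh (n = 2 each), NTC-CCl4 and sgBap1-CCl4 (n = 3 each). All CCl4 livers lie below all vehicle livers of the same guide in the 3 panels. For Foxa1 to Foxa3 in sgBap1 livers the gap is narrow, -2.888 against -2.882.

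Hnf4a (ENSMUSG00000017950.16, chr2:163506808-163572910, + strand) measured 613 and 546 CPM in NTC-Veh livers and 488, 526 and 445 CPM in NTC-CCl4 livers. Every CCl4 liver lay below both vehicle livers, but the log2 fold change of -0.25 (95% interval -0.54 to 0.036) did not pass (adjusted p = 0.125). In sgBap1 livers it went from 512 and 544 CPM to 481, 396 and 493 CPM, a log2 fold change of -0.21 (95% interval -0.50 to 0.080, adjusted p = 0.194). With library size as the only scaling the sign turned, to 0.22 in NTC livers (adjusted p = 0.078) and to 0.26 in sgBap1 livers, where Hnf4a was then called higher (adjusted p = 0.0402), while the median of all genes was 0.50 and 0.52. Relative to that median, Hnf4a lay at -0.28 and -0.26, a subtraction that puts back much of the centring of the main scaling.

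Onecut2 (ENSMUSG00000045991.19, on chromosome 18) fell from 171 and 174 CPM to 90.6, 77.9 and 117 CPM in NTC livers (-0.86 on the log2 scale, SE 0.16, with an adjusted p of 0.00113). In sgBap1 livers it went from 144 and 115 CPM to 75.0, 64.3 and 73.2 CPM (log2 fold change -0.87, adjusted p = 0.001). The NTC-Veh livers were the highest of the 10 and the sgBap1-CCl4 livers the lowest.

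Onecut1 (ENSMUSG00000043013.10, chr9:74861921-74891781, + strand) rested on 1 liver. It measured 110 and 26.8 CPM in NTC-Veh and 23.8, 13.0 and 19.5 CPM in NTC-CCl4 livers, which is -1.87 on the log2 scale (SE 0.54) at an adjusted p of 0.0203. Without NTC-Veh replicate 1 the value was -0.52 (adjusted p = 0.293), and without NTC-CCl4 replicate 2 the adjusted p was 0.0596. In sgBap1 livers Onecut1 went from 20.2 and 19.2 CPM to 16.5, 11.6 and 8.91 CPM (log2 fold change -0.68, adjusted p = 0.327). Its counts are uncertain, since 52.3% of its 50-base stretches are also found in Gm20649, a lincRNA on the same strand, or in Onecut3, and 8 livers had non-whole estimates. Gm20649 measured 8.22 and 6.68 CPM in NTC-Veh livers and 0 to 4.89 CPM after CCl4.

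Nr5a2 (ENSMUSG00000026398.14, chr1:136842571-136960448, - strand) went from 72.9 and 81.7 CPM to 54.1, 50.2 and 49.1 CPM in NTC livers (log2 fold change -0.60, SE 0.14, adjusted p = 0.00509). In sgBap1 livers it went from 89.4 and 74.9 CPM to 58.6, 46.1 and 66.6 CPM (log2 fold change -0.53, adjusted p = 0.00949). With library size alone the values were -0.13 (adjusted p = 0.424) and -0.059 (adjusted p = 0.711), and both calls also depended on single livers, with an adjusted p of 0.053 without NTC-Veh replicate 2 and 0.106 without sgBap1-Veh replicate 1.

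Prox1 (ENSMUSG00000010175.13, chr1:190118035-190170714, - strand) measured 137 and 195 CPM in NTC-Veh and 125, 104 and 128 CPM in NTC-CCl4 livers, and its log2 fold change of -0.48 (SE 0.20) did not pass (adjusted p = 0.0621). It passed with DESeq2's Wald test (adjusted p = 0.0351), with only the livers of the 2 groups (adjusted p = 0.0365), without NTC-Veh replicate 1 (-0.71, adjusted p = 0.0277) and without sgBap1-CCl4 replicate 2 (adjusted p = 0.0203). Without NTC-Veh replicate 2 the value was -0.20 (adjusted p = 0.502), and with library size alone -0.015 (adjusted p = 0.95). In sgBap1 livers Prox1 fell from 134 and 157 CPM to 110, 72.9 and 105 CPM (log2 fold change -0.60, adjusted p = 0.0244). Without sgBap1-Veh replicate 2 the adjusted p was 0.155.

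**Figure D3:**
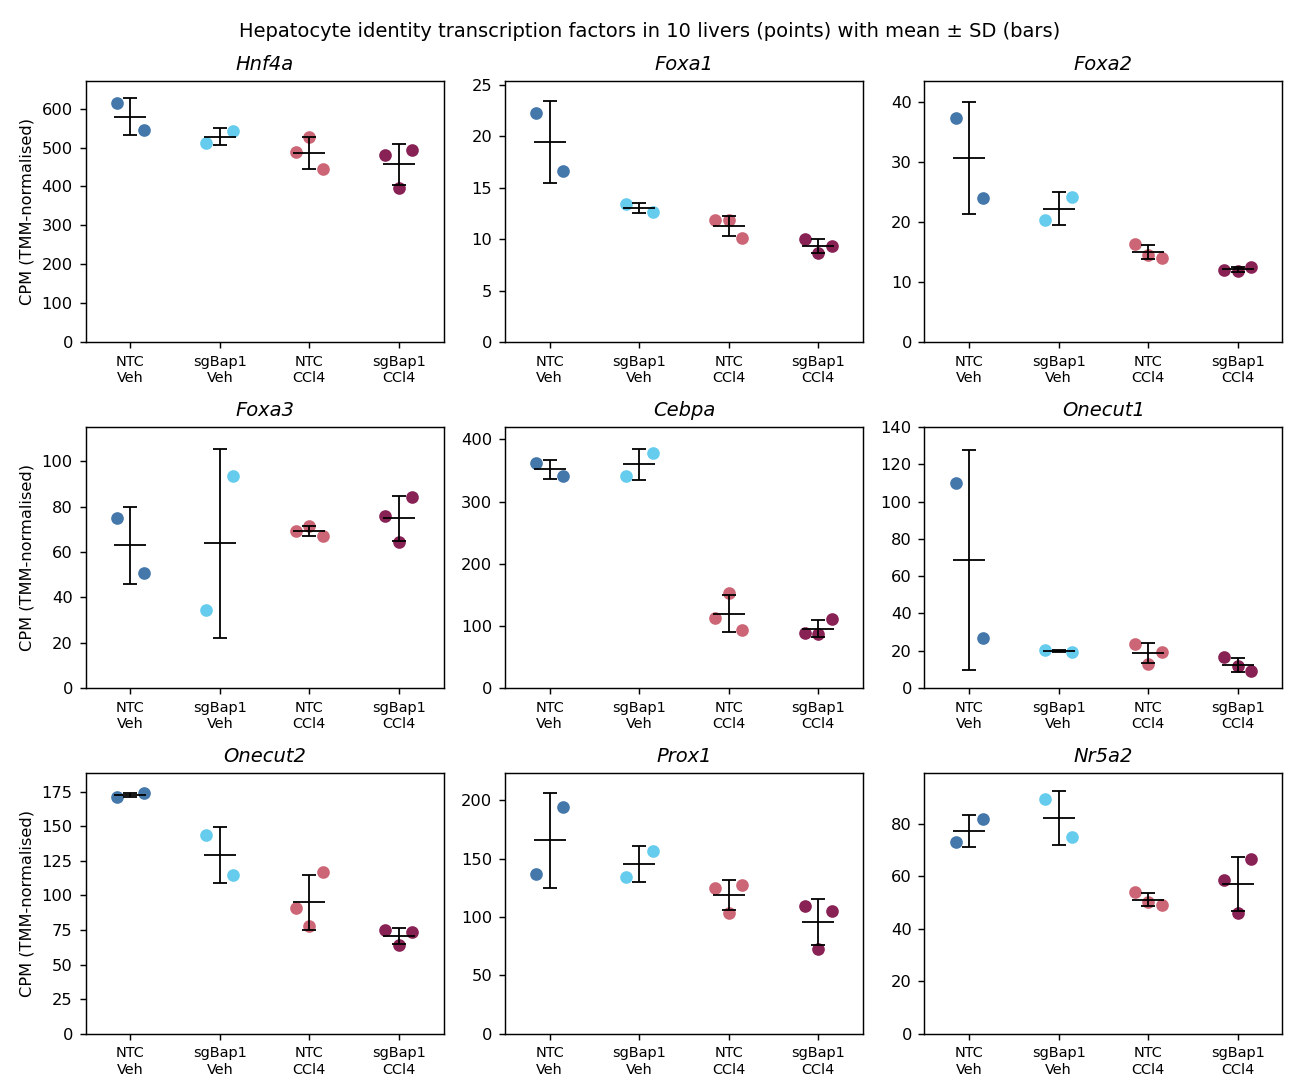
Level of each factor in CPM after TMM normalisation in each liver (points), with the mean and SD of each group (bars), n = 2 with vehicle and n = 3 with CCl4. Cebpa falls from 341 to 378 CPM with vehicle to 86.4 to 152 CPM with CCl4, Onecut1 has a single liver at 110 CPM, and the vehicle points of Foxa3 lie on both sides of its CCl4 points.

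In sgBap1 livers CCl4 likewise lowered 6 of the 9 factors and raised 0, where 57% of all tested genes were called, 28% lower and 29% higher. With library size alone 2 fell, again Cebpa and Foxa2, and 1, Hnf4a, rose. The median log2 fold change was -0.60 over the factors and 0.039 over all genes tested. Cebpa, Foxa1, Foxa2, Onecut2 and Nr5a2 passed under both guides. Foxa2 went from 20.4 and 24.2 CPM to 12.1, 11.8 and 12.5 CPM (log2 fold change -0.88, adjusted p = 0.00104). Foxa1 went from 13.4 and 12.7 CPM to 10.0, 8.68 and 9.31 CPM (log2 fold change -0.48, adjusted p = 0.0128), and without sgBap1-Veh replicate 1 its adjusted p was 0.0801.

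The call on Onecut1 under one guide and on Prox1 under the other does not show a difference between guides, which the interaction tests directly. The interaction is the log2 fold change with CCl4 in sgBap1 minus that in NTC livers. No factor passed (0 of 9, and 0 at an unadjusted p under 0.05), and 0% of all tested genes did (1764 genes, 10.4%, at an unadjusted p under 0.05). DESeq2's Wald test called 424 genes of the whole table for the interaction, and again 0 of the 9 factors. The value for Cebpa was -0.36 with a 95% interval of -0.95 to 0.23, and for Foxa1 it was 0.31 with -0.13 to 0.74. For Hnf4a the interval was -0.37 to 0.46, and for Onecut1 it was wide, -0.63 to 3.01. Differences of those sizes remain possible at this number of livers.

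The second question is what the guide against Bap1 does without injury. Of the 9 factors 0 passed between guides with vehicle, where 0.406% of all tested genes were called. At an unadjusted p under 0.05 there were 4 factors, Foxa1, Foxa2, Onecut1 and Onecut2, against 12.3% of all genes. Much of this rested on single livers: without NTC-Veh replicate 1, Foxa1 went from -0.58 to -0.36, Foxa2 from -0.46 to -0.12 and Onecut1 from -1.80 to -0.44, and without sgBap1-Veh replicate 2 Onecut2 went from -0.42 to -0.26. DESeq2's Wald test called 1, Foxa1 (log2 fold change -0.57, adjusted p = 0.0383), which edgeR gave at -0.58 (SE 0.15, 95% interval -0.92 to -0.24, adjusted p = 0.134). Foxa1 measured 22.2 and 16.7 CPM in NTC-Veh and 13.4 and 12.7 CPM in sgBap1-Veh livers, without overlap. Hnf4a, Onecut1 and Onecut2 (log2 fold change -0.42, adjusted p = 0.376) were lower without overlap too, so 4 of the 9 factors were, beside 19.2% of all tested genes lower and 40.9% without overlap in either direction. For Cebpa the value was 0.032 (95% interval -0.42 to 0.49) and for Hnf4a -0.13 (-0.45 to 0.18). The summed macrophage and monocyte markers were also higher there, 307 to 421 against 158 to 214 CPM, and 1 of these 8 markers passed.

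After CCl4 the guide likewise changed 0 of the 9 factors, where 0.329% of all tested genes were called, and 2 were under an unadjusted p of 0.05, against 14% of all genes. DESeq2's Wald test also called 0. Onecut2 measured 90.6, 77.9 and 117 CPM in NTC-CCl4 and 75.0, 64.3 and 73.2 CPM in sgBap1-CCl4 livers (log2 fold change -0.42, 95% interval -0.75 to -0.10, adjusted p = 0.234), and without NTC-CCl4 replicate 3 its value was -0.25. Foxa1 (-0.27, adjusted p = 0.358) and Foxa2 (-0.31, adjusted p = 0.38) were, like Onecut2, lower without overlap, as were 10.2% of all tested genes, with 20.3% without overlap in either direction. Foxa1 and Onecut2 were lower without overlap under both treatments, as were 3.64% of all tested genes, and neither passed in edgeR's test.

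**Figure D4:**
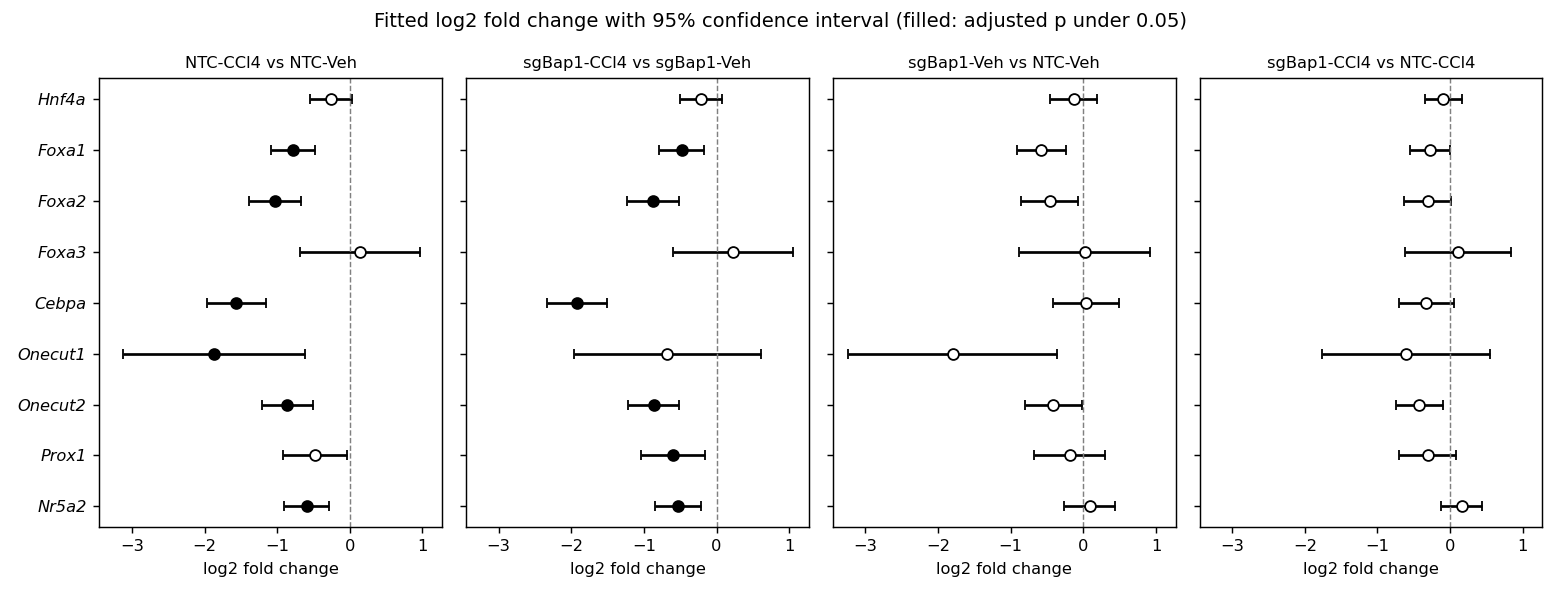
Fitted log2 fold change of each factor with its 95% confidence interval in the 4 pairwise comparisons of NTC-Veh and sgBap1-Veh (n = 2 each), NTC-CCl4 and sgBap1-CCl4 (n = 3 each), with filled points for an adjusted p under 0.05. With CCl4 6 points are filled under each guide, and between guides 0 are.

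Tested RNAs that overlap Hnf4a, Prox1 and Cebpa on the opposite strand fell with CCl4. In the main fit Hnf4a itself passed under neither guide, and Prox1 only in sgBap1 livers. Hnf4aos, an antisense RNA that covers the upstream Hnf4a start (chr2:163493807-163541720), measured 2.45 and 2.55 CPM in NTC-Veh and 0.192, 0.263 and 0.104 CPM in NTC-CCl4 livers. Its log2 fold change was -3.67 (SE 0.38, adjusted p = 2.78e-05), and -4.29 (SE 0.35, adjusted p = 6.76e-06) in sgBap1 livers, against -0.25 and -0.21 for Hnf4a. Prox1os fell from 9.83 and 11.2 CPM to 2.54, 3.21 and 2.37 CPM in NTC livers (log2 fold change -1.95, adjusted p = 0.00108). In sgBap1 livers its value was -2.36 (adjusted p = 0.000411). Gm45091, antisense at Cebpa, had 0.681 and 0.665 CPM with vehicle and 0.104 to 0.341 CPM with CCl4 in NTC livers (log2 fold change -1.49, adjusted p = 0.0152). The 0.104 CPM of Gm45091 and of Hnf4aos in NTC-CCl4 replicate 3 lies near the 0.0781 CPM that 3 counts make in that liver. The library kit keeps strand, but the strand setting used in counting is not given in the sources used here, so reads of a factor and its antisense RNA may not be fully told apart. Sympk, whose start lies 839 bases from that of Foxa3, had a log2 fold change near 0 in NTC livers (adjusted p = 0.992) and 0.23 in sgBap1 livers (adjusted p = 0.0407).

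Other liver-enriched transcription factors, a list of 28 nuclear receptors and other regulators, mostly fell. With CCl4 20 fell and 2 rose in NTC livers, and 21 fell and 1 rose in sgBap1 livers, with medians of -0.59 and -0.68 against 0.027 and 0.039 over all genes tested. Of all tested genes 26.6% fell and 27.4% rose in NTC livers, and 28% fell and 29% rose in sgBap1 livers. Tbx3, a T-box factor of hepatocytes near the central vein, went from 32.1 ± 1.07 to 3.03 ± 0.242 CPM in sgBap1 livers (log2 fold change -3.40, adjusted p = 3.44e-05). In NTC livers Nr1i3, the xenobiotic receptor CAR, went from 532 ± 6.21 to 97.1 ± 25.9 CPM (-2.45, adjusted p = 5.53e-05). The clock output factor Dbp had -2.80 (adjusted p = 0.00103) and Klf15, a factor of amino acid and glucose metabolism, -2.13 (adjusted p = 1.75e-06). In sgBap1 livers Nr1h4, the bile acid receptor FXR, went from 144 ± 28.7 to 38.2 ± 11.1 CPM (-1.92, adjusted p = 0.000118). Between guides after CCl4, Klf15 was the 1 gene of this list that passed, at 41.9 ± 3.63 CPM in NTC-CCl4 and 73.8 ± 7.26 CPM in sgBap1-CCl4 livers (0.82, adjusted p = 0.0256). It passed in 12 of 19 alternative fits, with a highest adjusted p of 0.147.

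Transcription factors of bile duct and other epithelia moved the other way. Of 10 tested, 7 rose and 0 fell in NTC livers and 6 rose and 0 fell in sgBap1 livers, with medians of 0.88 and 1.22. The shares of all tested genes were 27.4% higher and 26.6% lower in NTC livers, and 29% and 28% in sgBap1 livers. Sox9, which marks bile duct cells and hepatocytes with duct features, rose from 2.13 ± 0.0849 to 9.82 ± 1.02 CPM in NTC livers (log2 fold change 2.20, SE 0.16, adjusted p = 3.89e-06). Its rise in sgBap1 livers was 2.01 (adjusted p = 5.9e-06). Sox4 rose by 1.58 (adjusted p = 0.000195), the Notch target Hes1 by 0.98 (adjusted p = 0.000292) and Tead1, a partner of YAP, by 0.78 (adjusted p = 0.00149). The 8 bile duct markers summed to 44.4 to 52.6 CPM in NTC-Veh and 195 to 251 CPM in NTC-CCl4 livers, with Spp1 making up most of it (41.2 ± 3.49 and 199 ± 30.9 CPM). In sgBap1-CCl4 livers they summed to 274 to 372 CPM. Of the 7 bile duct markers tested, 3 rose, 0 fell and 4 were not called under each guide, against the shares above.

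Of 12 tested relatives of the 9 factors, 1 rose and 5 fell in NTC livers, where 27.4% of all tested genes rose and 26.6% fell, with a median of -0.78. In sgBap1 livers 3 rose and 3 fell, near the 29% and 28% of all tested genes, with a median of 0.098. Foxm1, a forkhead factor of dividing cells, rose from 0.632 ± 0.0856 to 16.8 ± 3.61 CPM in NTC livers (log2 fold change 4.73, adjusted p = 3.22e-06) and by 3.97 in sgBap1 livers. Foxo3, a forkhead factor held back by insulin signalling, had log2 fold changes of -1.38 in NTC livers (adjusted p = 2.09e-05) and -1.48 in sgBap1 livers (adjusted p = 1.25e-05). Cebpb, the C/EBP relative of the acute phase and of regeneration, fell from 67.6 ± 18.9 to 38.1 ± 7.93 CPM in NTC livers (-0.83, adjusted p = 0.00679). Between guides after CCl4, Cebpd (4.55 ± 1.04 against 10.2 ± 2.15 CPM, log2 fold change 1.16, adjusted p = 0.0392) and Foxo1 (29.0 ± 3.55 against 52.7 ± 1.86 CPM, 0.86, adjusted p = 0.0189) were higher in sgBap1 livers. Without sgBap1-CCl4 replicate 2, the liver with Adipoq and Plin1 RNA, Cebpd did not pass (0.97, adjusted p = 0.0804) and Foxo1 did (0.88, adjusted p = 0.0344). Of 19 alternative fits, Cebpd passed in 9 and Foxo1 in 15, with highest adjusted p-values of 0.216 and 0.092 in these edgeR, DESeq2 and limma fits.

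Genes that these factors are known to drive were counted from lists that share some members, such as G6pc, Pck1, Tat and Cyp7a1. Beside them, 26.6% of all tested genes fell and 27.4% rose in NTC livers, and 28% and 29% in sgBap1 livers. For HNF4A, 16 of 19 fell and 0 rose under each guide, with medians of -1.58 and -1.40, beside the values of -0.25 and -0.21 for Hnf4a itself. Cyp7a1, the rate-limiting enzyme of bile acid synthesis, went from 376 ± 148 to 2.49 ± 1.70 CPM in NTC livers (log2 fold change -7.20, adjusted p = 0.000143) and from 281 ± 179 to 0.772 ± 0.344 CPM in sgBap1 livers (-8.51, adjusted p = 8.48e-05). Slc10a1, the bile acid uptake carrier, had -3.10 and -3.80 (adjusted p = 5.87e-06 and 2.21e-06), and the urea cycle gene Otc -2.41 and -2.68 (adjusted p = 4.71e-06 and 2.68e-06).

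For CEBPA, 8 of 9 fell in NTC and 7 of 9 in sgBap1 livers, with 0 rising, where 26.6% and 28% of all tested genes fell. The same shares apply to the NR5A2 and ONECUT lists. Cyp27a1, of the alternative bile acid pathway, had -2.41 (adjusted p = 8.73e-06) and the liver glycogen synthase gene Gys2 -2.19 (adjusted p = 0.000333) in NTC livers. For NR5A2, 7 of 10 fell under each guide, among them Gnmt, a methyl-group enzyme, which went from 1262 ± 104 to 104 ± 20.2 CPM (-3.60, adjusted p = 7.82e-07). For ONECUT, 6 of 8 fell in NTC and 5 of 8 in sgBap1 livers, including the glucose carrier gene Slc2a2 (-2.09, adjusted p = 0.000587, and -3.12, adjusted p = 5.84e-05).

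Of the 9 genes of the FOXA list, 6 fell and 3 rose in NTC livers, where 26.6% and 27.4% of all tested genes did. In sgBap1 livers 3 fell and 3 rose, near the 28% and 29% of all tested genes. Afp, the fetal albumin-like protein, rose from 1.44 ± 0.390 to 11.7 ± 5.67 CPM in NTC livers (log2 fold change 3.02, adjusted p = 0.000389) and by 4.31 in sgBap1 livers. Igfbp1, a secreted binder of insulin-like growth factors, rose from 68.7 ± 17.99 to 518 ± 178 CPM in sgBap1 livers (2.91, adjusted p = 5.46e-05). Pck1 fell from 4469 ± 637 to 1496 ± 41.7 CPM in NTC livers (-1.58, adjusted p = 0.000276). No gene of the 5 target lists was called between guides, with vehicle or with CCl4.

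**Figure D5:**
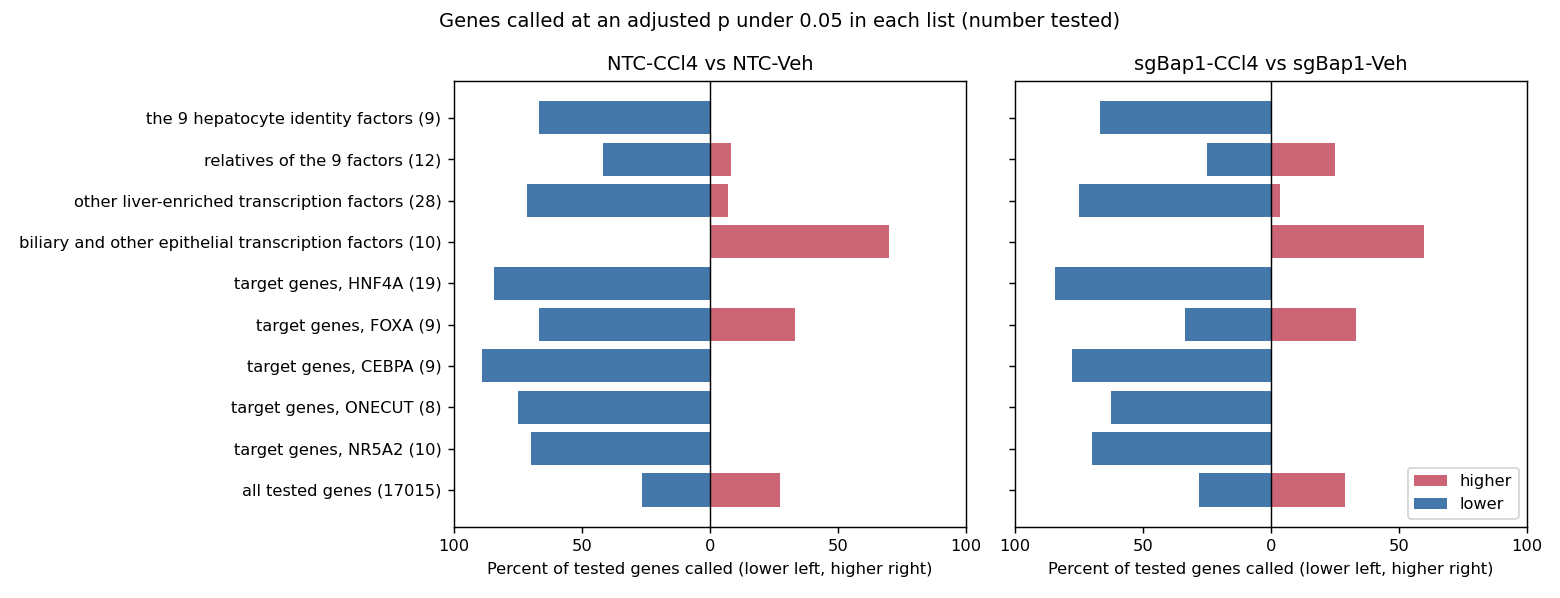
Percent of the tested genes of each list called lower (left, blue) or higher (right, red) at an adjusted p under 0.05 with CCl4 in NTC livers (left panel, 3 against 2) and in sgBap1 livers (right panel, 3 against 2), with all 17015 tested genes as the last bar. The 9 factors and the HNF4A, CEBPA, NR5A2 and ONECUT lists lie mostly to the left, and the biliary factors to the right.

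Across the 10 livers, most pairs of factors rose and fell together, which partly restates the drop with CCl4 that they share. Pearson's r of log2 CPM was 0.95 for Foxa1 with Foxa2, 0.90 for Foxa2 with Cebpa and 0.87 for Hnf4a with Foxa1. Foxa3 stood apart, with r from -0.42 (Onecut2) to 0.046 (Hnf4a). Among 12028 tested genes averaging 100 counts or more, the one most like Cebpa was Phb2 (r = 0.997, 10 livers), followed by L3hypdh (0.996). Foxa2 was nearest to Tpcn1 (0.989), Foxa1 to Adck5 (0.982), Onecut2 to Zfp318 (0.980) and Nr5a2 to Ppp1r3g (0.978). The r compares shape and not size. Phb2 had log2 fold changes with CCl4 of -0.60 (NTC) and -0.70 (sgBap1), against -1.56 and -1.92 for Cebpa. Ppp1r3g had -3.76 and -3.13, against -0.60 and -0.53 for Nr5a2. Prox1 was nearest to Elovl2 (0.963), Onecut1 to Cish (0.959), Hnf4a to Crot (0.952) and Foxa3 to Srsf6 (0.938). All points share the same 10 libraries and 4 groups, and no test was made.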

How the data were processed

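RNA of 10 livers was sequenced from poly(A) libraries of a strand-keeping kit. Per the labels and the study's methods, the authors aligned reads to GRCm38 and quantified GENCODE vM25 genes (STAR 2.7.6a and Salmon 1.4.0 in the submitters' processing notes). The deposited values are Salmon's estimated counts per gene, without normalization, and 9.22% are not whole. Totals were 3.30e+07 to 5.22e+07 per liver, and 3 counts are at most 0.112 CPM, which covers counting error only.

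Rounded counts went into edgeR 4.0.16 under R 4.3.3 (filterByExpr, TMM, glmQLFit with robust = TRUE and legacy = FALSE, 1 model of the 4 groups). Tests were two-sided, with Benjamini-Hochberg adjustment over 17015 genes and a threshold of 0.05. The SE is the log2 fold change divided by the square root of F. Log2 CPM used a pseudocount of 2. Groups came from the sample titles, and nothing beyond replicate numbers says how mice were batched. The fit was also run on simulated counts with known changes in sgBap1-Veh livers only, and the outcome is not given here. That run did not test the scaling between CCl4 and vehicle livers.

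The 9 factors, lists and markers were chosen with earlier results of these data known. Genes named from a list are up to 4 with the largest log2 fold change among those called, averaging 100 counts or more, whose groups did not overlap. In addition the 2 genes most correlated with each factor, overlapping genes, genes starting within 5000 bases, Bap1, Adipoq and Plin1 were looked up, and some are left out of the text. Positions and lengths are those of GENCODE vM21 (vM25 was not used here). Alternatives were DESeq2 1.42.0 size factors or Wald test, library size alone, 2 other filters, limma-voom (limma 3.58.1), the replicate number as a block, only the livers compared, and each liver left out. The quasi-likelihood method of edgeR 3 was added after seeing the data.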

Additional observations from a re-analysis of the deposited data

How the results depend on the processing

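Cebpa and Foxa2 passed with CCl4 under both guides in all 38 alternative fits each, and Onecut2 in 36, Foxa1 in 35, Nr5a2 in 34, Prox1 in 21 and Onecut1 in 14. The number of factors called moved beyond 1.5 times with library size alone, to 2 in NTC livers (Cebpa and Foxa2 lower) and 3 in sgBap1 livers (Cebpa and Foxa2 lower, Hnf4a higher) in place of 6 and 6 lower, and with DESeq2's Wald test, to 1 in place of 0 in sgBap1-Veh against NTC-Veh. Library size alone shifts the median of all genes to 0.50 and 0.52, so that 80.5% and 78.3% of calls were higher in place of 50.8% and 50.9%. Relative to that median the factors kept their direction, with Cebpa at -1.59 and -1.96. Subtracting the median puts back much of the centring of the main scaling, so these values are no separate test of it. With 1 liver left out, 5 to 7 factors were called in NTC and 4 to 6 in sgBap1 livers (without sgBap1-Veh replicate 2, 5 lower and Foxa3 higher), and 0 in the other comparisons. Where that leaves a vehicle group with 1 liver, its spread is taken from the other groups. A fit without a liver of the other guide keeps nearly the same log2 fold change and varies mainly the spread. For Cebpa in NTC livers the value was -1.559 without sgBap1-Veh replicate 1, so such fits add little to the numbers of fits passed.

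Signs turned for differences that had not passed. With library size alone Hnf4a had 0.22 and 0.26 with CCl4, and the second of these, in sgBap1 livers, passed in the opposite direction (adjusted p = 0.0402). Foxa3 in sgBap1-Veh against NTC-Veh (0.017) had -0.007 without the filter, -0.13 with limma-voom and -0.004 with only the livers of the 2 groups. The interaction of Onecut2 (-0.009) had 0.014 without the filter and 0.017 with limma-voom. With 1 liver left out, Foxa3 ranged from -0.11 to 0.44 with CCl4 in NTC livers, -0.315 to 1.13 in sgBap1 livers and -0.88 to 0.57 with the guide and vehicle. With the guide and vehicle Cebpa ranged from -0.042 to 0.099, Prox1 from -0.42 to 0.083 and Nr5a2 from -0.050 to 0.21, and with the guide and CCl4 Hnf4a from -0.16 to 0.003. The interaction ranged from -0.040 to 0.14 for Hnf4a, -0.19 to 0.44 for Foxa2, -0.455 to 0.99 for Foxa3, -0.16 to 1.88 for Onecut1, -0.16 to 0.16 for Onecut2, -0.39 to 0.11 for Prox1 and -0.065 to 0.21 for Nr5a2. The cause was not tested.

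The deviations of 13 same-numbered pairs of livers correlated at -0.15 to 0.10. In a vehicle group of 2 livers, the correlations of 1 liver repeat those of the other with the sign turned, so these values are not independent. Whether the replicate numbers pair the livers was not tested. With the replicate number as a block, 6, 6, 0, 0 and 0 factors were called, as without it, and Foxa3 in sgBap1-Veh against NTC-Veh had -0.033 and the interaction of Onecut2 0.020. Over all genes the block left 1 call in place of 69 between guides with vehicle and 24 in place of 56 with CCl4. Calls over all genes between guides also moved with other settings, with vehicle to 562 with DESeq2's Wald test, 103 without the filter, 32 with library size alone, 25 with limma-voom, 19 with only those livers and 0 to 150 with 1 liver left out. With CCl4 they moved to 509 with DESeq2's Wald test, 94 without the filter, 28 with only those livers and 1 to 71 with 1 liver left out, and for the interaction from 0 to 424 with DESeq2's Wald test, 34 without the filter, 2 with library size alone and 0 to 7 with 1 liver left out. With 2 livers a vehicle group, differences of the size of the intervals given could not be told from 0.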
